A study of Mus musculus with 2 samples.

Results

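Chromatin-modifying enzymes and remodellers were followed in RNA from pancreatic islets of mice, the hormone-secreting cell clusters where β-cells, which make insulin, predominate. Members were the genes whose symbol belongs to the families Kdm, Kmt, Hdac, Sirt, Dnmt, Tet, Setd, Chd, Smarc, Arid and Brd, with Ezh1, Ezh2, Suz12, Eed, Bmi1 and Men1, and 108 of the 17245 gene symbols in the deposited table matched. There were 2 libraries, 1 labelled as islets of mice with a β-cell knockout of the DNA sensor cGAS (KO) and 1 labelled as islets of wild-type mice (WT). Islets of both genotypes were freed with collagenase, picked by hand and cultured before RNA extraction. The age and sex of the mice, the number of animals behind each library, the deleted exon and the promoter that drives the deletion are all not given in the sources used here. With 1 library per genotype no difference has a replicate check, and no p-value is given.

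Chromatin enzymes add, remove or read chemical marks on histone tails and DNA, and remodellers use ATP to slide, evict or exchange nucleosomes. Methylation of histone H3 at lysine 4 (H3K4) is typical of active promoters and enhancers, while methylation at lysine 9 and lysine 27 of H3 and at lysine 20 of H4 is tied to silent or compact chromatin. Acetyl groups mark active chromatin and are removed by zinc-dependent histone deacetylases (HDACs) and by NAD-dependent sirtuins, many of which also act on proteins outside chromatin. In β-cells, Polycomb proteins, DNA methyltransferases and the tumour suppressor menin are known for their part in limiting or permitting replication with age.

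Cgas itself had 0.521 FPKM in the library labelled KO, against 0.205 FPKM in WT, a ratio of 2.55 (exact 95% interval 1.35 to 4.98). Both values are under 1 FPKM and rest on at least 31 and 16 reads. The target gene's RNA was thus not lower in this library, which is called the library labelled KO throughout. The label names a knockout in β-cells, and the part of other islet cells in the Cgas value was not tested. With 1 library per genotype, whether the labels were exchanged was not tested, and an exchange would turn every direction given here. FPKM divides the reads of a gene by its length in kilobases and by the reads of the library in units of 1000000. Insulin, glucagon and somatostatin genes were present in both libraries, and none of the 10 endocrine markers was at 0. Of these 10, 4 were higher and 6 lower in the library labelled KO. Ins1 was 2.08-fold higher there, while Ins2 was 1.37-fold lower and Slc2a2 2.10-fold lower. In the library labelled KO all 14 acinar markers were lower, with a summed level of 116 against 1955 FPKM and Ptf1a at 0 in the library labelled KO. All 12 endothelial markers (summed 842 against 367 FPKM), 11 of 11 stromal markers (213 against 111 FPKM) and 11 of 12 macrophage markers (326 against 140 FPKM) were higher in it. Of 8 lymphocyte markers 4 were higher and 4 lower, and of 8 ductal markers 6 were higher and 2 lower. The part of these cell types in the values below was not tested, and in whole islets fewer cells of a type and less RNA per cell cannot be told apart. Totals of 14537660 reads in the library labelled KO and 19097001 in WT were recovered from the values and annotated exon lengths. For the library labelled KO, a total of 7268830 reads gave whole gene lengths for 57 of 60 genes, against 53 for the total used. It was passed over because 65.0% of its lengths exceeded the annotated exons, against 11.7%. The whole reads behind an expressed member were at least 57 to 4570 in the library labelled KO and at least 18 to 5464 in the WT library, and intervals of ratios come from them and cover counting error only.

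Expressed genes are here those that reached 1 FPKM in at least one of the libraries, and they numbered 100 of the 108 members and 12428 in all. The expressed members had a median level of 8.31 FPKM in the library labelled KO, against 8.63 FPKM in WT, close to the medians of all expressed genes, 7.62 and 7.47 FPKM. The highest member was Hdac6 in the library labelled KO, at 73.9 FPKM, and Setd3 in the WT library, at 63.3 FPKM. Setd3, despite its SET domain, is known for methylating a histidine of actin. The 8 members below the floor were Ezh2, Tet1, Hdac8, Hdac9, Kdm4d, Setdb2, Dnmt3l and Arid3c. Ezh2, just under it, had 0.913 FPKM in the library labelled KO, against 0.966 FPKM in WT, and Arid5a and Hdac4, just over it, were at 1.43 and 1.40 FPKM in the library labelled KO against 0.962 and 1.37 FPKM in WT. Summed over all 108 members, the level was 1330 FPKM in the library labelled KO, against 1250 FPKM in WT. Brd3os and Brd8dc matched by name only and are counted with the bromodomain proteins for that reason, with no function stated for them.

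**Figure D1:**
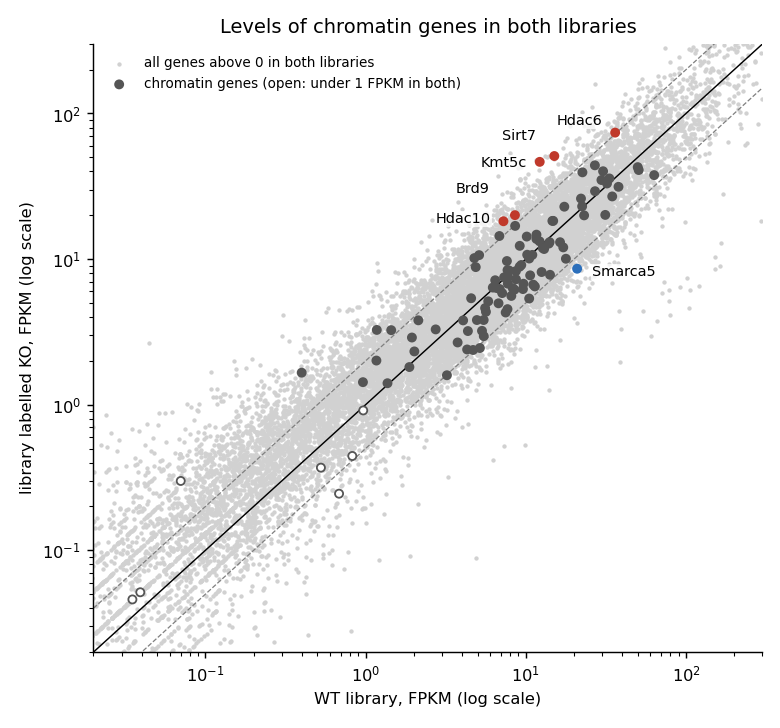
FPKM of each gene in the library labelled KO (vertical, log scale) against the WT library (horizontal, log scale), with chromatin genes as large points over all genes above 0 in both libraries, in grey; axes end at 300 FPKM. The solid line marks equal values and dashed lines a 2-fold ratio of FPKM; red and blue points are at least 2-fold higher or lower on the log2(FPKM + 1) scale, and open points are under 1 FPKM in both libraries. Most chromatin genes lie between the dashed lines; the 5 red points lie above and Smarca5 below, and low genes such as Brd8dc and Smarcad1 lie past a dashed line but short of 2-fold on the log2(FPKM + 1) scale.

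Differences are log2((KO + 1)/(WT + 1)), a scale that understates the change of low genes. On it 5 of the 100 expressed members were at least 2-fold higher in the library labelled KO, where 6.98% of all expressed genes were, and 1 was at least 2-fold lower, where 3.88% of all expressed genes were, so that 6 were called in either direction, against 10.9% of all. The members' shares are therefore near or under the background, and a count past 2-fold sets them apart from other genes in neither direction. Kmt5c and Sirt7 passed the limit under all 8 alternative settings; Hdac10 did not with a pseudocount of 5 or the GC and length trend removed, Brd9 not with a pseudocount of 5 or with sums equalised without the 20 highest genes, and Smarca5 not with a pseudocount of 5 or the trend removed. Hdac6, at the limit, fell short under 5 of the 8. Higher genes made up 64.3% of all genes past the limit, and 46.5% after scaling to equal sums. The median member was at -0.042, with quartiles of -0.37 and 0.30, and the median of all expressed genes was 0.077, with quartiles of -0.35 and 0.51. Of the members 45 lay above 0 and 55 below, against 54.4% of all expressed genes above 0. Scaling each library to a sum of 1000000 moved the median of all genes by more than 0.1, to -0.049, and the members' median with it, to -0.18, so that members stayed below all genes by 0.13 as against 0.12 on the deposited scale.

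Transcript length and GC content moved with these differences. Among the 100 expressed members the Spearman correlation of the log2 ratio with the length of the longest GENCODE transcript was -0.52, and with its GC content 0.59, against -0.39 and 0.42 over 12376 expressed genes. These are correlations across genes of the same 2 libraries, and genes are not independent replicates. Of 18 members with transcripts of up to 2500 nucleotides, 17 were above 0, with a median of 0.79, where 72.5% of all such genes were above 0, with a median of 0.37. Of 50 members with transcripts over 5000 nucleotides, 14 were above 0, with a median of -0.24, where 31.9% of all such genes were above 0, with a median of -0.25. The members' median transcript was 5075 nucleotides long, against 3100 over all genes. With a smooth trend on GC content and length removed, the members' median was -0.022 and that of all genes -0.013, a difference of -0.0094, and 4 members passed the limit upwards (3.25% of all genes) and none downwards (2.97%), 4% in either direction against 6.21% of all genes. Of the members named below, Hdac7, Sirt2, Sirt3, Kdm5a, Setdb1, Smarcc1, Smarcd3, Arid4b, Brd2 and Dnmt3l have exons that overlap a protein-coding gene on the opposite strand, and Sirt7 and Setd1a one on the same strand, so their values are less certain where the counting ignored strand or shared reads. Values with this trend removed are given beside the leading genes below, as trend-removed log2 ratios.

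**Figure D2:**
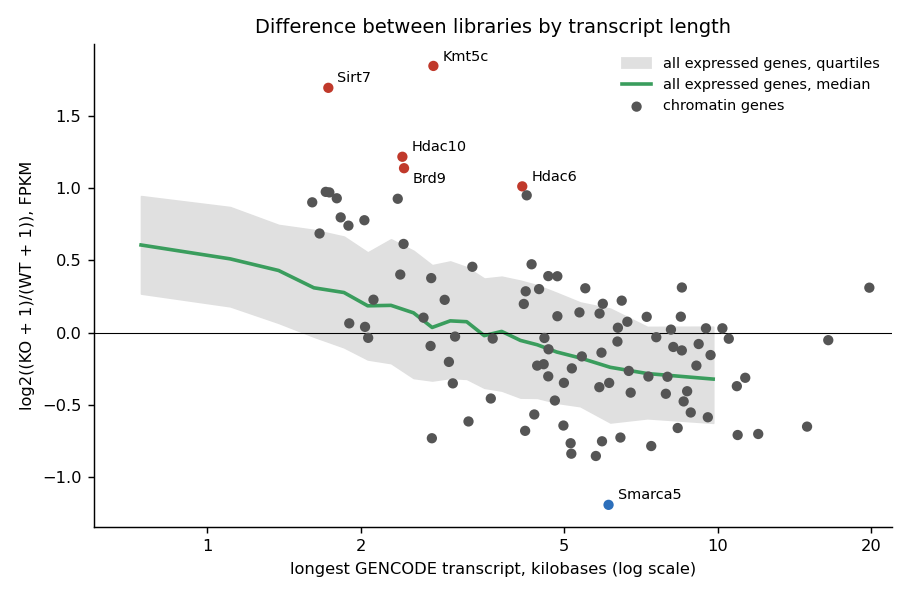
The log2 ratio of the library labelled KO to the WT library (vertical) by length of the longest GENCODE transcript (horizontal, log scale). Points are chromatin genes, red at least 2-fold higher and blue at least 2-fold lower; the green line and grey band are the median and quartiles of all expressed genes in 20 bins of length. Chromatin genes with short transcripts lie mostly above 0 and those with transcripts over 5000 nucleotides mostly below, as the green line does.

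Enzymes that silence chromatin through lysine 20 of histone H4 differed among themselves. Kmt5c, which makes dimethylated and trimethylated H4K20, had 46.5 FPKM in the library labelled KO, against 12.2 FPKM in WT. On the log2(FPKM + 1) scale this was the widest difference of any member. The ratio was 3.81 (3.46 to 4.19), and the log2 ratio was 1.85, or 1.34 with the trend removed. Kmt5b, its close relative with the same activity, was lower, at 6.30 FPKM in the library labelled KO, against 8.30 FPKM in WT, a ratio of 0.760 (0.667 to 0.865). Kmt5a, which makes monomethylated H4K20, was at 11.9 and 12.8 FPKM in the library labelled KO and WT, a ratio whose interval, 0.844 to 1.03, includes equality. Kmt5c thus made up 88.1% of the summed FPKM of Kmt5c and Kmt5b in the library labelled KO and 59.5% in WT. Setd2, the enzyme for trimethylated H3K36 on transcribed gene bodies, had 6.68 FPKM in the library labelled KO, against 11.1 FPKM in WT, 1.67-fold lower (1.45 to 1.92). Kmt5c lies on chromosome 7 from 4740115 to 4747514 in GRCm38, and no exon of another protein-coding gene overlaps its exons.

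The starts of Kmt5c, Hdac6 and Smarca5 are shown as RefSeq promoter windows on GRCm38.p6, from 250 bases before to 50 bases after the annotated start. Hdac6 was the most abundant member on average. On the log2(FPKM + 1) scale Kmt5c had the highest ratio and Smarca5 was the single member at least 2-fold lower. Capitals mark matches on either strand to 4 motifs, each spelled here 5′ to 3′. They are the CCAAT box, whose letters are its name, the GC box, spelled GGGCGG, and, found in the core promoters of some genes, the TATA box, spelled TATAAA. The last is the C/EBP motif, TTGCNNAA, searched because the study's title names CEBPβ.
Kmt5c, chr7:4739877-4740176, plus strand: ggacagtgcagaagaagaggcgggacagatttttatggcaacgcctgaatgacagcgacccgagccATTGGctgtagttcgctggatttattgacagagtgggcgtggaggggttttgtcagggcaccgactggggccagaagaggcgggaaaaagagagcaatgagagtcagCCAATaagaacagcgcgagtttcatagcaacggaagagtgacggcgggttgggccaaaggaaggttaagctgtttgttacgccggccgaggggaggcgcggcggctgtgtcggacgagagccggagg
Hdac6, chrX:7947840-7948139, minus strand: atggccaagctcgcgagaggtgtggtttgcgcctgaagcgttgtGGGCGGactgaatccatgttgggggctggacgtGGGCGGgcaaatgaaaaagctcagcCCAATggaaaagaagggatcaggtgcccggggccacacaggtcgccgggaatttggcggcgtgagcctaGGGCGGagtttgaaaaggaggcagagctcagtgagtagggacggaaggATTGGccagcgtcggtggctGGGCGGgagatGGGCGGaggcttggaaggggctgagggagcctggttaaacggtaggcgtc
Smarca5, chr8:80739410-80739709, minus strand: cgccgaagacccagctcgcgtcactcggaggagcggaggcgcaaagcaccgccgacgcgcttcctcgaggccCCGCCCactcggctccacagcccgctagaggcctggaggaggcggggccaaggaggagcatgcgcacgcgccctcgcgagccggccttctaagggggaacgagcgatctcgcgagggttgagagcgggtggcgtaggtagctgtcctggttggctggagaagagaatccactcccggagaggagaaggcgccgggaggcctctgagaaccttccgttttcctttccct
The Kmt5c window held 2 CCAAT boxes and no GC box, the Hdac6 window 2 CCAAT boxes and 5 GC boxes, and the Smarca5 window 1 GC box and no CCAAT box. None of the 3 held a TATA box or the C/EBP letters, which describes these windows only. RefSeq windows matched 86 of the 108 members, 78 of them expressed. Among those 78, GC boxes were in 74.4%, CCAAT boxes in 37.2%, TATA boxes in 3.85% and the C/EBP motif in 6.41% of windows. Over the windows of 9959 expressed genes the shares were 65.0% for GC boxes, 38% for CCAAT boxes, 7.04% for TATA boxes and 7.82% for the C/EBP motif. The 78 windows held a median of 23 CpG dinucleotides, against 21 over the expressed genes.

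The expressed zinc-dependent deacetylases outside class I were higher or close to equal in the library labelled KO on the deposited scale. Among these 6 genes of classes II and IV, 2 passed the 2-fold limit upwards, which 6.98% of all expressed genes did, and none downwards, and the median was 0.67. With the trend removed none passed it, the median was 0.34 and Hdac11 was below 0, at -0.32. Hdac6, the cytoplasmic deacetylase of tubulin, had 73.9 FPKM in the library labelled KO, against 36.1 FPKM in WT, a ratio of 2.05 (1.95 to 2.14). Its log2 ratio of 1.01 is just past the 2-fold limit and was 0.83 with the trend removed. Hdac10, known as a polyamine deacetylase, had 18.2 FPKM in the library labelled KO, against 7.25 FPKM in WT, a ratio of 2.51 (2.19 to 2.87), and 0.80 with the trend removed. Hdac7, a class IIa enzyme known for its role in endothelial cells, had 10.2 FPKM in the library labelled KO, against 4.77 FPKM in WT, a log2 ratio of 0.95, just short of the limit. Endothelial markers were higher in the same library (summed 842 against 367 FPKM), and their part in the Hdac7 value was not tested. Hdac5, another class IIa enzyme, was at 40.1 and 30.4 FPKM in the library labelled KO and WT, and Hdac11, the class IV enzyme, at 35.8 and 33.2 FPKM. Hdac4 lay at 0.021, and under the scaling to equal sums Hdac4 and Hdac11 were below 0, leaving 4 of 6 above it. Hdac9, below the floor, had 0.245 FPKM in the library labelled KO, against 0.683 FPKM in WT, 2.79-fold lower (2.16 to 3.64).

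The expressed class I deacetylases, nuclear enzymes of the NuRD, SIN3, CoREST and NCoR corepressor complexes, differed among themselves. Hdac3, the catalytic subunit of NCoR, had 39.4 FPKM in the library labelled KO, against 22.6 FPKM in WT, a ratio of 1.75 (1.60 to 1.91). Hdac2 had 20.1 FPKM in the library labelled KO, against 31.3 FPKM in WT, 1.56-fold lower (1.43 to 1.70). Hdac1 was at 33.0 and 32.1 FPKM in the library labelled KO and WT, and its interval of 0.944 to 1.12 includes equality. Hdac1 and Hdac2 were therefore nearly level in WT, with Hdac1 at 50.6% of their sum, and Hdac1 made up 62.2% in the library labelled KO. Hdac8 was below the floor, at 0.370 and 0.526 FPKM.

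All 7 sirtuins were expressed, and 6 were above 0, with a median of 0.74, where 54.4% of all expressed genes were above 0. Sirt7, a nucleolar deacylase known for its action on acetylated H3K18, had 51.0 FPKM in the library labelled KO, against 15.1 FPKM in WT, a ratio of 3.39 (3.06 to 3.75) and a log2 ratio of 1.70, or 1.10 with the trend removed. Its exons overlap those of Mafg on the same strand over 124 bases. The mitochondrial sirtuins were also higher in the library labelled KO, short of the 2-fold limit on the log2(FPKM + 1) scale. By the ratio of FPKM values Sirt4 was past 2-fold, at 2.08. Sirt3, the main mitochondrial deacetylase, was at 16.9 against 8.58 FPKM in WT, Sirt4 at 10.6 against 5.11 FPKM and Sirt5, a desuccinylase, at 3.80 against 2.13 FPKM. Sirt6, a nuclear enzyme of DNA repair and H3K9 deacetylation, was at 8.81 against 4.87 FPKM, a ratio of 1.81 (1.41 to 2.32). Sirt2, mainly cytoplasmic, was at 34.9 and 29.7 FPKM in the library labelled KO and WT, a ratio of 1.18 (1.06 to 1.31), and was below 0 with the trend removed, at -0.11. Sirt1, the best known nuclear sirtuin, was the one below 0 on the deposited scale, at 4.61 FPKM in the library labelled KO, against 5.57 FPKM in WT, with an interval of 0.660 to 1.03, and was above 0 with the trend removed, at 0.097. It also has the longest transcript of the family, 4430 nucleotides, while the family's median is 1891. The family's median was 0.50 with the trend removed, with 6 of 7 above 0; those 6 include Sirt1 and leave out Sirt2, while scaling the libraries left the 6 of the deposited scale above 0.

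**Figure D3:**
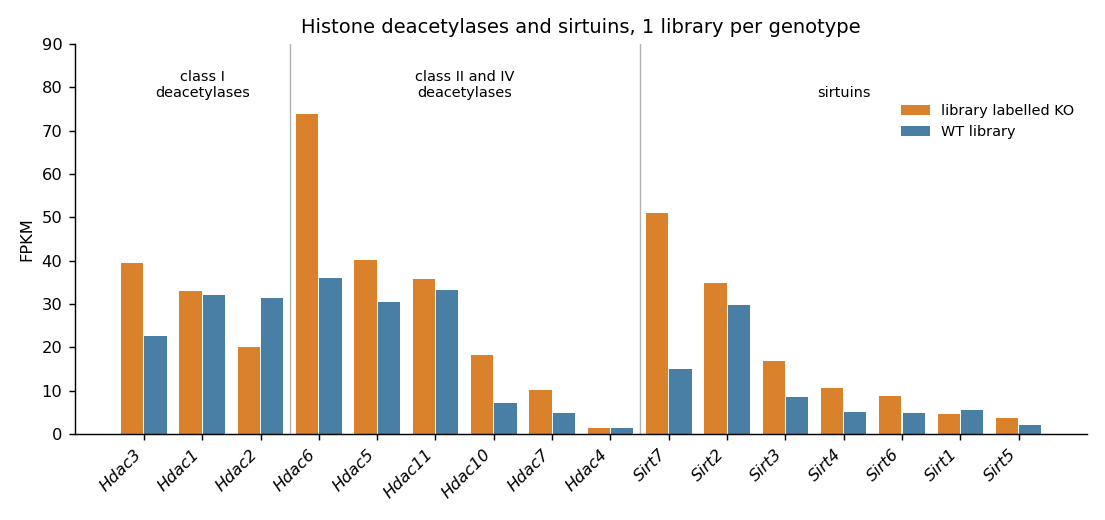
FPKM of each expressed deacetylase and sirtuin, with the library labelled KO (orange) left of the WT library (blue), 1 library each and therefore no error bars. Hdac6 and Sirt7 are the tallest orange bars, at 73.9 and 51.0 FPKM, and Hdac2 and Sirt1 are the genes with a lower orange bar.

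Histone demethylases leaned the other way. Of 17 expressed Kdm genes none was past 2-fold in either direction, against 10.9% of all expressed genes. Of the 17, 14 were below 0 and the median was -0.35, while 54.4% of all expressed genes were above 0. The family's median transcript was 5935 nucleotides long, and 31.9% of all genes with transcripts over 5000 nucleotides were above 0. Kdm6a, which removes H3K27 methylation, had 2.38 FPKM in the library labelled KO, against 4.69 FPKM in WT, 1.97-fold lower (1.71 to 2.28) and the lowest of the family. The H3K4 demethylases of the Kdm5 family were all below 0 on the deposited scale, and Kdm5d was above it with the trend removed, at 0.15. The X-linked Kdm5c was at 6.49 against 11.4 FPKM in WT, 1.76-fold lower (1.63 to 1.89), and Kdm5a at 2.96 against 5.47 FPKM. Kdm5b was 1.38-fold lower, and Kdm5d, the Y-linked copy of Kdm5c, was at 3.81 against 4.95 FPKM, so Y-linked RNA was present in both libraries. Kdm1a (LSD1), which takes methyl groups off H3K4 within the CoREST complex, was the most abundant demethylase, at 26.9 FPKM in the library labelled KO, against 34.6 FPKM in WT. Kdm6b and Kdm3a, at 0.075 and 0.11, lay above 0 on the deposited scale and below it when libraries were scaled to equal sums, and Kdm8 was at 0.40, with 2.89 FPKM against 1.95 FPKM in WT. With the trend removed the family's median was -0.21, 14 of 17 were below 0, and Kdm5c, at -0.70, was then the lowest of them.

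The 9 genes grouped as H3K4 methyltransferases and menin were split. None was past 2-fold, against 10.9% of all expressed genes, and the median was -0.20, the value of Men1. Setd7, a monomethyltransferase, had 7.80 FPKM in the library labelled KO, against 14.2 FPKM in WT, 1.82-fold lower (1.67 to 1.97). Kmt2c and Kmt2d, enhancer enzymes that work in parallel complexes, differed in opposite directions. Kmt2d had 9.70 FPKM in the library labelled KO, against 7.62 FPKM in WT, a ratio of 1.27 (1.21 to 1.34), while Kmt2c was at 4.53 against 7.69 FPKM, 1.70-fold lower (1.59 to 1.81). Setd1a and Setd1b, the SET1 enzymes of promoters, showed the same split, with Setd1a at 13.7 against 11.6 FPKM and Setd1b at 6.22 against 9.60 FPKM. Men1, which encodes menin and was the most abundant gene of this role, had 20.0 FPKM in the library labelled KO, against 23.1 FPKM in WT, a ratio of 0.863 (0.764 to 0.975). Its trend-removed log2 ratio was -0.65, further from 0 than the -0.20 on the deposited scale. The H3K9 methyltransferase Setdb1 was at 12.3 against 9.16 FPKM in WT, a ratio of 1.35 (1.22 to 1.48), and Setdb2 rested on at least 2 reads in each library.

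Among the other SET-domain genes, the mostly non-histone enzymes Setd6 and Setd4 were higher and Setd3 and Setd5 lower. Setd6, known for methylating the NF-kB subunit RelA, had 14.4 FPKM in the library labelled KO, against 6.84 FPKM in WT, a ratio of 2.11 (1.81 to 2.45), and its log2 ratio of 0.97 was just short of the limit because of the pseudocount. Setd3 had 37.7 FPKM in the library labelled KO against 63.3 FPKM in WT, 1.68-fold lower (1.58 to 1.78), and its trend-removed value of -0.69 was close to the -0.73 on the deposited scale.

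The 5 Polycomb core genes among the members, and the DNA methyltransferases and TET enzymes, all lay within 2-fold. So did 11078 of the 12428 expressed genes. Of the genes of these 3 groups, Ezh2, Tet1 and Dnmt3l were below the floor. Polycomb repressive complex 2 (PRC2) methylates H3K27 through Ezh1 or Ezh2 with Suz12 and Eed, and Bmi1 belongs to PRC1, which ubiquitinates H2A. Ezh1 had 18.3 FPKM in the library labelled KO, against 14.8 FPKM in WT, a ratio of 1.23 (1.14 to 1.34), and Ezh2, the catalytic subunit of dividing cells, stayed under 1 FPKM in both. Ezh1 made up 95.2% of the pair in the library labelled KO and 93.9% in WT. Suz12 was 1.54-fold lower (8.15 against 12.5 FPKM, interval 1.38 to 1.71) and Bmi1, known for repressing the Cdkn2a locus, 1.43-fold lower (6.77 against 9.66 FPKM, 1.30 to 1.56). Eed was at 10.7 and 11.0 FPKM in the library labelled KO and WT, with an interval of 0.719 to 1.31. With the trend removed, Suz12 was at -0.20 and Bmi1 at -0.12.

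The maintenance methyltransferase Dnmt1 was at 7.15 and 6.44 FPKM in the library labelled KO and WT (interval of the ratio 0.956 to 1.29), and no difference was detectable at this depth. Of the de novo enzymes, Dnmt3a was at 5.13 against 5.83 FPKM in WT, a ratio of 0.881 (0.830 to 0.935), and Dnmt3b at 2.01 against 1.17 FPKM, a ratio of 1.72 (1.36 to 2.18). Dnmt3l, their cofactor in germ cells, rested on at least 1 read in each library. TET dioxygenases, which oxidise methylated cytosine, were all lower in the library labelled KO. Tet2 was at 3.79 against 4.06 FPKM (interval 0.834 to 1.05), Tet3 was 1.40-fold lower (1.25 to 1.57), and Tet1, below the floor, was at 0.444 against 0.826 FPKM. With the trend removed Tet2 was above 0, at 0.34.

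**Figure D4:**
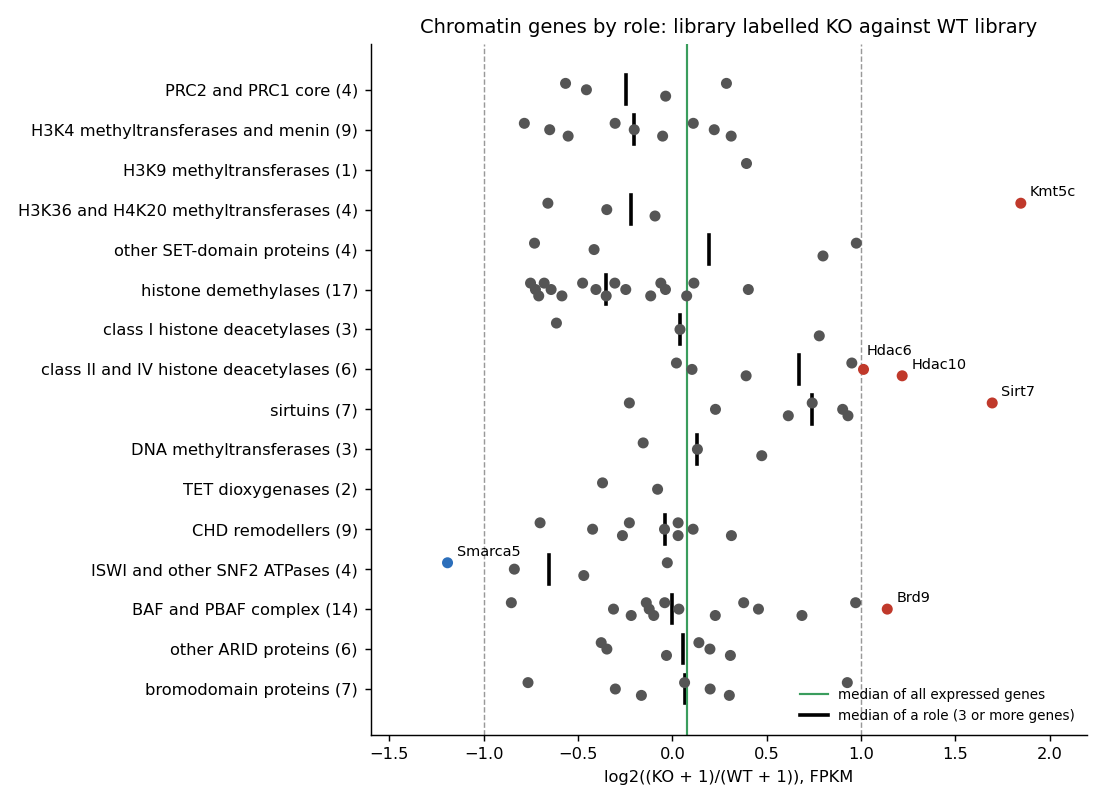
Each point is an expressed chromatin gene, placed by its log2 ratio of the library labelled KO to the WT library (horizontal) and by role (vertical, with the number of expressed genes). Black bars are medians of roles with 3 or more genes, the green line is the median of all expressed genes at 0.077, dashed lines are the 2-fold limits, and red or blue points are past them. Sirtuins and class II and IV deacetylases sit to the right of the green line, with medians of 0.74 and 0.67, and demethylases and the ISWI and other SNF2 ATPases to its left, with medians of -0.35 and -0.65.

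ATP-dependent remodellers gave the only member at least 2-fold lower on the log2(FPKM + 1) scale. Smarca5 (SNF2H), the ATPase of most ISWI complexes, had 8.59 FPKM in the library labelled KO, against 20.9 FPKM in WT, 2.43-fold lower (2.22 to 2.68). Its log2 ratio of -1.19 was -0.72 with the trend removed, no longer past 2-fold. Its relative Smarca1 (SNF2L) was at 5.58 against 8.12 FPKM, and Smarcad1, an ATPase that keeps silent chromatin through replication, at 2.45 against 5.17 FPKM, 2.11-fold lower (1.85 to 2.41) with a log2 ratio of -0.84. Smarcal1, which anneals DNA at stalled forks, was at 7.57 and 7.73 FPKM, with an interval that includes equality, 0.893 to 1.07. Smarca5 lies on chromosome 8 from 80698507 to 80739497 in GRCm38.

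The BAF complexes, which open chromatin through Smarca4 or Smarca2, centred on 0, with 7 of 14 genes above it and a median of -0.0035. Both ATPases were nearly level, Smarca4 at 23.0 FPKM in the library labelled KO, against 22.5 FPKM in WT, and Smarca2 at 11.7 and 13.0 FPKM. Brd9, which defines the non-canonical BAF complex, had 20.0 FPKM in the library labelled KO, against 8.55 FPKM in WT, a ratio of 2.34 (2.11 to 2.60). Its log2 ratio was 1.14, and 1.07 with the trend removed. Brd7, its counterpart in the PBAF complex, was at 8.86 and 9.15 FPKM in the library labelled KO and WT. Smarcc1, a scaffold subunit, was at 5.36 against 10.5 FPKM in WT, 1.96-fold lower (1.75 to 2.19), while its paralogue Smarcc2, the most abundant subunit on average, was at 42.8 against 49.96 FPKM. Smarcd3, the BAF60 subunit known from muscle and neurons, had 3.26 FPKM in the library labelled KO, against 1.17 FPKM in WT, a ratio of 2.78 (2.03 to 3.83) and a log2 ratio of 0.97. Its exons overlap those of Chpf2 on the opposite strand over 2466 bases. Brd9 lies on chromosome 13 from 73937811 to 73960895.

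CHD remodellers were close to 0, with a median of -0.042. None of the 9 was past 2-fold on the log2(FPKM + 1) scale, against 10.9% of all expressed genes. Chd4 and Chd3, the ATPases of NuRD, were the most abundant, Chd4 at 31.4 FPKM in the library labelled KO, against 37.9 FPKM in WT, and Chd3 at 29.3 and 27.0 FPKM. Chd8, a chromodomain factor known from neurodevelopment, was highest, at 14.7 against 11.7 FPKM, a ratio of 1.26 (1.19 to 1.34). Chd9 was lowest, at 1.59 against 3.22 FPKM, 2.02-fold lower, and its log2 ratio of -0.70 was short of the limit because of the pseudocount. The reads of Chd9 could not be recovered, so it has no interval. The neuronal Chd5 was at 7.49 and 7.32 FPKM.

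Bromodomain readers and other ARID proteins were mixed. Brd2, the most abundant acetyl-lysine reader of the BET family, had 40.9 FPKM in the library labelled KO, against 50.7 FPKM in WT, 1.24-fold lower (1.18 to 1.30), and Brd3 was at 6.78 against 7.72 FPKM. Brd2 overlaps H2-DMa on the opposite strand over 360 bases. Brd1, a scaffold of a histone acetyltransferase complex, was the lowest, at 10.1 against 17.8 FPKM, 1.77-fold lower (1.62 to 1.93), and was at -0.78 with the trend removed. Brd8dc, highest of this group, was at 1.66 against 0.399 FPKM and rested on at least 57 and 18 reads, a ratio of 4.16 (2.41 to 7.51). The other ARID genes lay between -0.38 (Arid4b, a SIN3 partner) and 0.31 (Arid5a).

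Pairs of related enzymes, chosen after their values were seen, were also compared within each library, where a common scaling of all genes cancels. The trend on transcript length and GC content does not cancel where the genes of a pair differ in them. The widest shifts among 12 pairs were 28.5 percentage points higher in the library labelled KO for Kmt5c over Kmt5b, 18.4 for Kmt2d over Kmt2c and 14.0 for Setd1a over Setd1b. With the trend removed, the log2 ratios were 1.34 and -0.035 for Kmt5c and Kmt5b, and 0.077 and -0.34 for Kmt2d and Kmt2c. Those of Setd1a and Setd1b were 0.044 and -0.78. Smarca5 made up 60.6% of its sum with Smarca1 in the library labelled KO and 72.0% in WT. Dnmt3a made up 71.9% of its sum with Dnmt3b in the library labelled KO and 83.3% in WT. Shares of Ezh1, Smarca4 and Arid1a moved by 1.37 to 3.66 points.

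**Figure D5:**
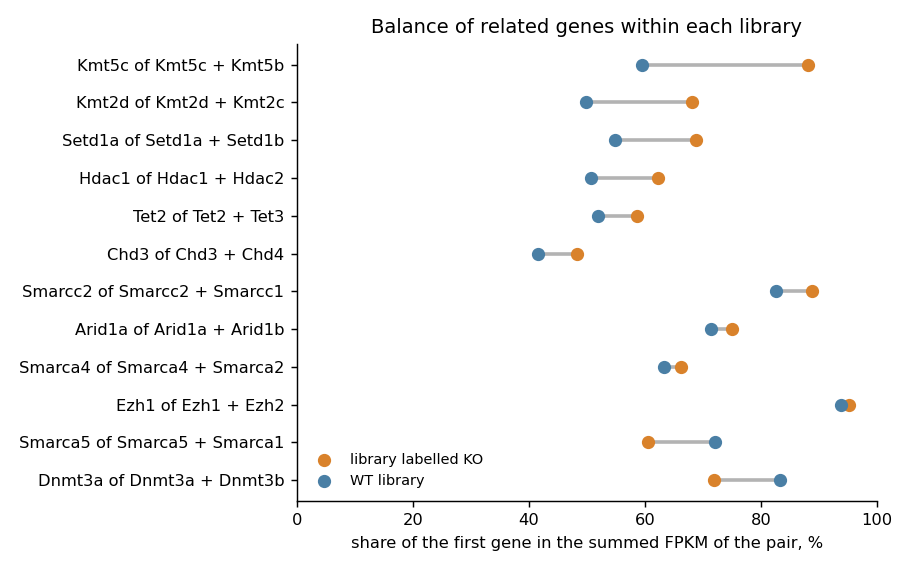
Share of the first gene in the summed FPKM of 12 pairs of related genes (horizontal, percent), with the library labelled KO in orange and the WT library in blue, ordered by the difference. Kmt5c against Kmt5b shows the widest gap, 88.1% against 59.5%, and Ezh1 against Ezh2 the narrowest.

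Partners of these enzymes that carry other symbols were read from 11 lists holding 188 genes, 174 of them expressed. Past the 2-fold limit were 3 higher and 5 lower partners, 1.72% and 2.87%, against 6.98% and 3.88% of all expressed genes, and their median was -0.074. With the trend removed none was higher and 3 were lower (1.72%), against 3.25% and 2.97% of all genes. Of the 8 partners past the limit on the deposited scale Rybp alone kept its call. Rybp, a subunit of variant PRC1, had 3.71 FPKM in the library labelled KO, against 11.5 FPKM in WT, 3.09-fold lower (2.67 to 3.57), and was at -1.06 with the trend removed, where Mbd2 and Ing1 of the corepressor list were also at least 2-fold lower, at -1.15 and -1.01. Ring1, a ubiquitin ligase of PRC1, had 33.0 against 16.3 FPKM, or 0.98 on the log2 scale. BAF partners held Actl6b, the neuronal actin-like subunit, at 28.8 against 12.3 FPKM (2.33-fold higher, 2.07 to 2.64; trend-removed 0.59), and Pbrm1, the polybromo subunit of PBAF, at 5.09 against 12.3 FPKM (2.42-fold lower, 2.21 to 2.65; trend-removed -0.63). Exons of Pbrm1, and of Ash1l, Zbtb33 and Znhit1 below, overlap a gene on the opposite strand, and those of Pagr1a overlap Pagr1b on the same strand.

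Over all expressed genes 54.4% were above 0 and the median was 0.077. Acetyltransferases had 13 of 17 below 0 and a median of -0.26, led by the coactivator Ncoa2 at -1.12, or -0.81 with the trend removed, and Kat6a at -0.81. COMPASS partners, subunits or partners of the complexes of the H3K4 enzymes, had 8 of 12 below 0 and a median of -0.37. Ncoa6 was at -0.89 and Pagr1a at 0.82. The corepressor partners of the class I deacetylases had a median of -0.25 over 27 genes, with Tbl1x at -0.91 and Rcor1 at -0.87. None was past 2-fold, against 10.9% of all expressed genes. Chaperones of histones had a median of -0.28 over 17 genes, with Anp32e, a chaperone of H2A.Z, 2.44-fold lower (13.8 against 33.6 FPKM, 2.24 to 2.67; trend-removed -0.996) and Nasp at 0.65. INO80, SRCAP and TIP60 subunits had 14 of 21 above 0 and a median of 0.22, with Znhit1 and Actr5 both at least 2-fold higher, at 1.07 and 1.06, and at 0.28 and 0.51 with the trend removed. Methyltransferases outside the symbol families had a median of -0.14 over 14 genes, with Ash1l at -1.06, or -0.65 with the trend removed, and Smyd5 at 0.78. Medians of arginine methyltransferases (0.070, with Prmt6 at -0.39 and Prmt2 at 0.33), PRC partners (-0.035), ISWI partners (-0.080, with Bptf at -0.63 and Rsf1 at -0.60), DNA-methylation readers (-0.038, with Zbtb33 at -0.94 and Gadd45a at 0.70) and BAF partners (0.17) lay within 0.2 of 0.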

How the data were processed

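Islet RNA of 2 samples was sequenced, and each sample was grouped by its genotype. Per the labels' protocols, libraries came from a SMARTER kit for mRNA. The authors deposited FPKM values, 1 column per library, which were used without further scaling. Per the submitters' processing notes, GRCm38 (mm10) was the genome build; no aligner, counter, annotation or strand setting is given in the sources used here.

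Totals and whole reads were searched so that each FPKM value is whole reads over a whole gene length, within the rounding of the printed digits plus 1e-06 of a nucleotide; 17086 of 17245 genes (99.1%) and 107 of 108 members were solved, against 2.0% of 1000 shuffled pairs. The smallest such reads gave exact Clopper-Pearson 95% intervals, which cover counting error only. True reads may be a multiple, which would make the intervals too wide. Any PCR duplicates among the reads would make them too narrow. No count test was run, since the values are FPKM without replicates. The pseudocount and floor were 1 FPKM and the limit 2-fold. Trends were lowess fits (fraction 0.3, 3 iterations; statsmodels 0.14.6, scipy 1.17.1, numpy 2.4.6, pandas 2.3.3) on GC content, then log2 length, of the longest GENCODE M21 transcript, for 12376 of 12428 genes. Simulated data were used to test the search for totals, read recovery given the true totals, the 2-fold limit and a length trend. The choice between candidate totals, the intervals and the GC trend were not tested in this way.

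Members and lists were chosen with earlier results of these data known. Named were members past 2-fold, the most abundant, highest and lowest of each role, Polycomb, menin, DNA-methylation and class I deacetylase genes, and up to 2 genes per partner list; Hdac4, Hdac5, Hdac7, Hdac9, Hdac11, the other sirtuins, Kdm, Kmt2, Kmt5, Setd1, Setd, Chd, Brd, Smarc and Arid genes were added after their values were seen. Brd8, a member, was left out of the partner lists.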

Additional observations from a re-analysis of the deposited data

How the results depend on the processing

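Each of 8 alternatives changed 1 choice. Members at least 2-fold higher numbered 11 with a pseudocount of 0.1, 2 with a pseudocount of 5 and 3 with equal sums without the 20 highest genes, against 5; Kmt5c and Sirt7 were among them under all 8. Members at least 2-fold lower numbered 2 with a pseudocount of 0.1, 0 with a pseudocount of 5, 3 with equal sums of 1000000 and 0 once the trend on GC content and length was taken out, against 1. Higher genes made up 64.3% of all calls past 2-fold, 46.5% with equal sums of 1000000, 44.3% with equal sums without the 20 highest genes and 52.3% with the trend removed.

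Medians of roles are given here less the median of all genes. With the trend removed they were -0.11 for H3K4 methyltransferases with menin, -0.059 for H3K36 and H4K20 methyltransferases and -0.20 for demethylases. In that setting they were 0.35 for class II and IV deacetylases, 0.054 for CHD remodellers and -0.27 for ISWI and other SNF2 ATPases. Class II and IV deacetylases were at 0.45 with a pseudocount of 5, 0.33 without a floor and 0.91 with a floor of 5 FPKM. ISWI and other SNF2 ATPases were at -0.88 with a pseudocount of 0.1 and -0.43 with one of 5. A floor of 5 FPKM gave -0.46 for other SET-domain genes and -0.42 for other ARID genes. The cause of these shifts was not tested. The other 116 comparisons of counts and medians with an alternative stayed within 1.5 times or within the counting interval of the middle gene. No paired analysis was possible because each genotype has 1 library. At this depth the counting interval included equal levels for 21 of 99 expressed members.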

Other observations

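Histone genes, the substrate of these enzymes, were looked at after the members' values were seen. Of 71 listed histone symbols 43 reached 1 FPKM in either library, and past the 2-fold limit were 1 higher and 6 lower genes, where 6.98% and 3.88% of all expressed genes were. With the GC and length trend removed, 0 of 42 were past it higher and 15 lower, where 3.25% and 2.97% of all genes were. The median log2 ratio of the 43 was -0.18, or -0.74 with that trend removed. How well the trend fits these genes was not tested. Linker histones were split. H1f0, the replacement linker histone of non-dividing cells, had 40.5 FPKM in the library labelled KO, against 87.8 FPKM in WT, a log2 ratio of -1.10 (trend-removed -1.32). H1f2 was at 26.8 and 65.1 FPKM (-1.25), and H1f4 at 1.76 and 5.16 FPKM (-1.16). H1f10 was at 18.0 and 11.7 FPKM (0.58, trend-removed -0.41), H1f9 at 1.91 and 0.788 FPKM (0.70), and H1f3 at 0.886 and 1.35 FPKM (-0.32, trend-removed 0.20). The single higher gene was H2aj, a variant of H2A, at 29.3 and 12.4 FPKM (1.18, trend-removed 0.78). H3f3a and H3f3b, which encode the replacement histone H3.3, were at 99.2 and 62.3 FPKM in the library labelled KO against 156 and 65.0 FPKM in WT. Clustered histone genes are near-identical copies whose transcripts mostly lack poly(A) tails, so their single values are uncertain.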
